A study of Mus musculus with 8 samples.

Results

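The genes described here are 10 regulators of oxidative metabolism, chosen by symbol from the 16686 genes of the deposited table. They are the coactivators Ppargc1a and Ppargc1b, the estrogen-related receptors Esrra, Esrrb and Esrrg, the fatty acid receptors Ppara and Ppard, the muscle coregulator Perm1, and the mitochondrial factors Tfam and Nrf1. All 10 passed the filter on low counts that left 12542 genes for testing. They were followed in the tibialis anterior (TA), a fast-twitch hindlimb muscle, of male FVBN mice labelled as 22 months old, with 4 WT mice and 4 C2-/- mice and 1 library per mouse. C2-/- mice lack Mybpc2 throughout the body. This gene codes for fast myosin binding protein-C (fMyBP-C), a protein of the thick filament in fast fibres, and a Neo cassette took the place of most of its exons. Both genotypes were kept on the same standard diet, and the labels name no treatment. A growth note in the labels gives another age than the age entries, which does not touch the grouping.

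PGC-1 coactivators, the products of Ppargc1a and Ppargc1b, bind no DNA themselves and act by docking on transcription factors, among them the estrogen-related receptors (ERR) and the peroxisome proliferator-activated receptors (PPAR). ERR factors switch on genes of the respiratory chain and the citric acid cycle, whereas PPAR factors switch on genes of fatty acid use. Nuclear respiratory factor 1, from Nrf1, and the ETS factor GABP control nuclear genes for mitochondria, including Tfam. The product of Tfam packages mitochondrial DNA and helps to start its transcription. In skeletal muscle these regulators are known for setting mitochondrial content, and their level is known to respond to exercise, fasting and fibre type.

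Expected counts summed to between 25425993 and 29747692 per mouse, and values are given as CPM, counts scaled to the library total after TMM normalization. Mybpc2, the targeted gene, stood at 4964, 5450, 5101 and 7392 CPM in WT replicates 1 to 4 and at 4.35, 4.02, 38.3 and 3.85 CPM in C2-/- replicates 1 to 4. WT replicate 2 stood apart from the other mice, since it held the highest value of the 8 mice for 27.5% of the 12542 tested genes and the lowest value for 24.5%, against 6.57% to 12.6% and 7.83% to 13.4% in the other mice. Immediate early genes, which are switched on within minutes of stimulation, summed to 388, 1024, 556 and 2042 CPM in WT and to 305, 1373, 339 and 345 CPM in C2-/-, so that WT replicates 2 and 4 and C2-/- replicate 2 were the highest. Fast fibre markers summed to between 152996 and 202358 CPM in WT and between 159257 and 180342 CPM in C2-/-. Every marker of the 8 lists was above 0 in at least 1 mouse. Summed levels of 9 slow and oxidative fibre markers lay between 257 and 609.9 CPM in WT and between 229 and 502 CPM in C2-/-. Most of each sum was the marker Myh2, at 195 to 533 CPM in WT and 179 to 439 CPM in C2-/-. Adipocyte markers summed to 7.29 to 24.3 CPM in WT and 11.0 to 42.3 CPM in C2-/-, and tendon markers to 59.5 to 195 CPM and 99.0 to 273 CPM. Endothelial markers summed to 239.9 to 361 CPM in WT and 238 to 319 CPM in C2-/-, macrophage markers to 22.8 to 51.1 CPM and 36.5 to 62.8 CPM, and clock genes to 638 to 933 CPM and 607 to 998 CPM.

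The first question was whether loss of fMyBP-C went with another level of these regulators in old muscle. No regulator passed the test. Of the 10 genes, 4 were higher and 6 were lower in C2-/-, none had an unadjusted p under 0.05 where 5.29% of all tested genes did, and none was called past an adjusted p of 0.05 and 1.5-fold, where 0.0319% of all tested genes were (quasi-likelihood test of edgeR, p-values adjusted by Benjamini-Hochberg). DESeq2 and limma-voom likewise gave none of the 10 genes an unadjusted p under 0.05. The genotypes overlapped in CPM for all 10 genes, while they did not overlap for 3.38% of the tested genes. Unadjusted p-values ran from 0.159 for Ppard to 0.872 for Esrra, and adjusted p-values from 0.968 to 0.998. The median log2 fold change of the 10 genes was −0.05, beside −0.02 for all tested genes.

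A p that misses the threshold does not show that the levels were equal, and the 95% intervals give the room that is left. The intervals of Ppargc1a, Esrra, Esrrg, Tfam and Nrf1 lay within 1.5-fold in either direction. Those of Ppargc1b, Esrrb, Ppara and Perm1 lay within 2-fold, and the interval of Ppard reached from 0.488-fold to 1.14-fold. In whole muscle, fewer cells of a type and less RNA per cell cannot be told apart.

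**Figure D1:**
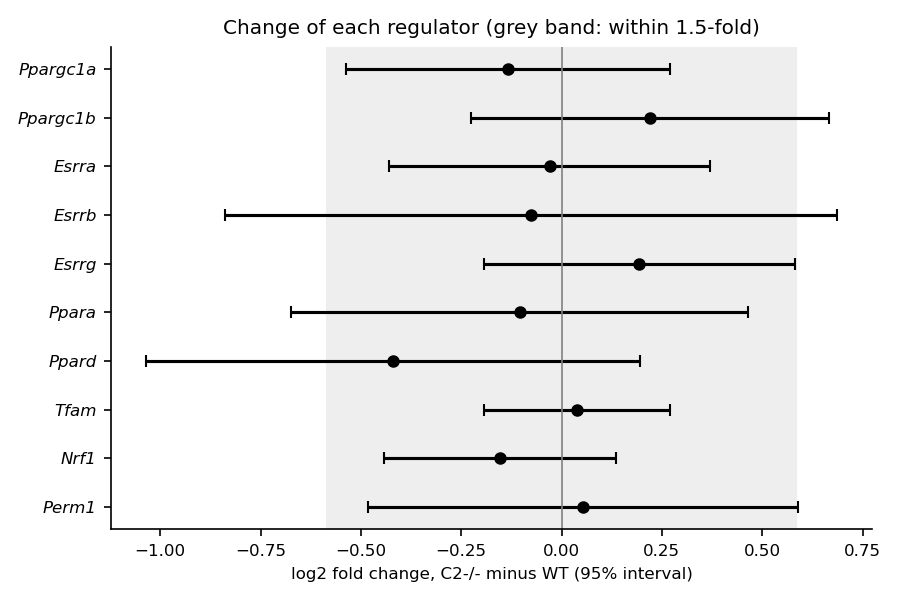
Log2 fold change of the 10 regulators (vertical axis), C2-/- minus WT, with 95% intervals from edgeR's quasi-likelihood fit, n = 4 mice per genotype, and the range within 1.5-fold in grey. All 10 intervals include 0, and that of Ppard, at −0.42, reaches farthest down, to −1.04.

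Among the coactivators, Ppargc1a (gene ID 19017, minus strand of chromosome 5, 51454250 to 51567726 in GRCm38) codes for PGC-1alpha. Its level was 40.7, 30.2, 52.4 and 49.8 CPM in WT replicates 1 to 4 and 40.5, 40.0, 45.5 and 31.8 CPM in C2-/- replicates 1 to 4. The lowest value, in WT replicate 2, and the highest, in WT replicate 3, both came from WT, and all C2-/- mice lay between them. The log2 fold change was −0.13 with a standard error of 0.18 and an adjusted p of 0.981. Ppargc1b (gene ID 170826, minus strand of chromosome 18, 61298136 to 61400431), which codes for PGC-1beta, measured 13.3, 14.1, 22.6 and 23.5 CPM in WT and 18.8, 21.2, 20.4 and 25.1 CPM in C2-/-. WT replicates 1 and 2 were the lowest of the 8 mice, while the other WT mice lay among the C2-/- mice. Its mean was 18.4 ± 5.40 CPM in WT and 21.4 ± 2.68 CPM in C2-/- (SD, n = 4), a log2 fold change of 0.22 with a standard error of 0.20.

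Perm1 (gene ID 74183, plus strand of chromosome 4, 156215868 to 156221307) codes for a striated muscle protein that is induced by PGC-1 and ERR and helps to switch on their target genes. Its level was 334, 189, 388 and 226 CPM in WT and 407, 248, 256 and 269 CPM in C2-/-. The mice fell apart within each genotype, with WT replicates 1 and 3 and C2-/- replicate 1 at 334 CPM or more and the other mice at 269 CPM or less. The log2 fold change was 0.05 with a standard error of 0.24, and it turned to −0.093 without WT replicate 2, to −0.030 without WT replicate 4 and to −0.14 without C2-/- replicate 1.

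Esrra (gene ID 26379, minus strand of chromosome 19, 6910977 to 6921813), which codes for ERRalpha, measured 114, 78.7, 116 and 90.6 CPM in WT and 122, 91.3, 72.9 and 105 CPM in C2-/-. Highest were C2-/- replicate 1 and WT replicates 3 and 1, the same mice as for Perm1, and the log2 fold change was −0.03 with a standard error of 0.18. Of its 4387 exon bases, 164 (3.74%) are shared with Trmt112 on the other strand and with a microRNA gene, and its counts are uncertain to that extent because the sources used here do not state that counting used the strand. Esrrg (gene ID 26381, plus strand of chromosome 1, 187608791 to 188214885), which codes for ERRgamma, a receptor known from oxidative fibres, measured 17.5, 10.1, 16.5 and 11.9 CPM in WT. In C2-/- it measured 16.6, 16.0, 15.3 and 16.2 CPM, so that the C2-/- mice lay close together and WT replicates 2 and 4 lay below all of them. The coefficient of variation of Esrrg was 25.6% in WT and 3.36% in C2-/-, and whether the spread itself differed was not tested. Esrrb (gene ID 26380, plus strand of chromosome 12, 86361117 to 86521628), for ERRbeta, measured 13.2, 9.37, 12.3 and 4.52 CPM in WT and 13.4, 6.58, 6.21 and 11.2 CPM in C2-/-. It varied 2.97-fold between the lowest and the highest mouse, the widest range of the 10 genes, and its log2 fold change was −0.08 with a standard error of 0.34.

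Ppard (gene ID 19015, plus strand of chromosome 17, 28232700 to 28301474) codes for PPARdelta, the main PPAR of muscle. Its level was 90.8, 177, 63.9 and 72.8 CPM in WT and 70.6, 76.5, 78.3 and 76.9 CPM in C2-/-. WT replicate 2 lay 2.32-fold above the median of the other 7 mice, whereas the coefficient of variation of the C2-/- mice was 4.52%. The log2 fold change was −0.42 with a standard error of 0.28 and an adjusted p of 0.968, and it was 0.00053 without WT replicate 2. Without WT replicate 3 it was −0.58, with an unadjusted p of 0.050 just under the threshold and an adjusted p of 0.642 in edgeR. Ppara (gene ID 19013, plus strand of chromosome 15, 85734983 to 85802819), for PPARalpha, which drives fatty acid oxidation, measured 13.3, 17.5, 18.1 and 11.6 CPM in WT and 20.1, 9.97, 9.51 and 16.8 CPM in C2-/-. C2-/- replicates 2 and 3 were the lowest of the 8 mice and C2-/- replicate 1 the highest. The log2 fold change was −0.10 with a standard error of 0.26.

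Tfam (gene ID 21780, minus strand of chromosome 10, 71225464 to 71238280) was the steadiest of the 10 genes. Its level was 25.8, 23.2, 24.0 and 23.1 CPM in WT and 23.3, 24.6, 27.2 and 23.5 CPM in C2-/-, a coefficient of variation of 6.08% over the 8 mice beside a median of 18.4% for all tested genes. Its log2 fold change was 0.04 with a standard error of 0.10. Nrf1 (gene ID 18181, plus strand of chromosome 6, 30047988 to 30153458) measured 9.68, 12.7, 10.3 and 9.85 CPM in WT and 9.65, 9.52, 8.90 and 10.2 CPM in C2-/-. WT replicate 2 was the highest mouse, and the log2 fold change of Nrf1 was −0.15 with a standard error of 0.13, and −0.052 without this mouse.

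**Figure D2:**
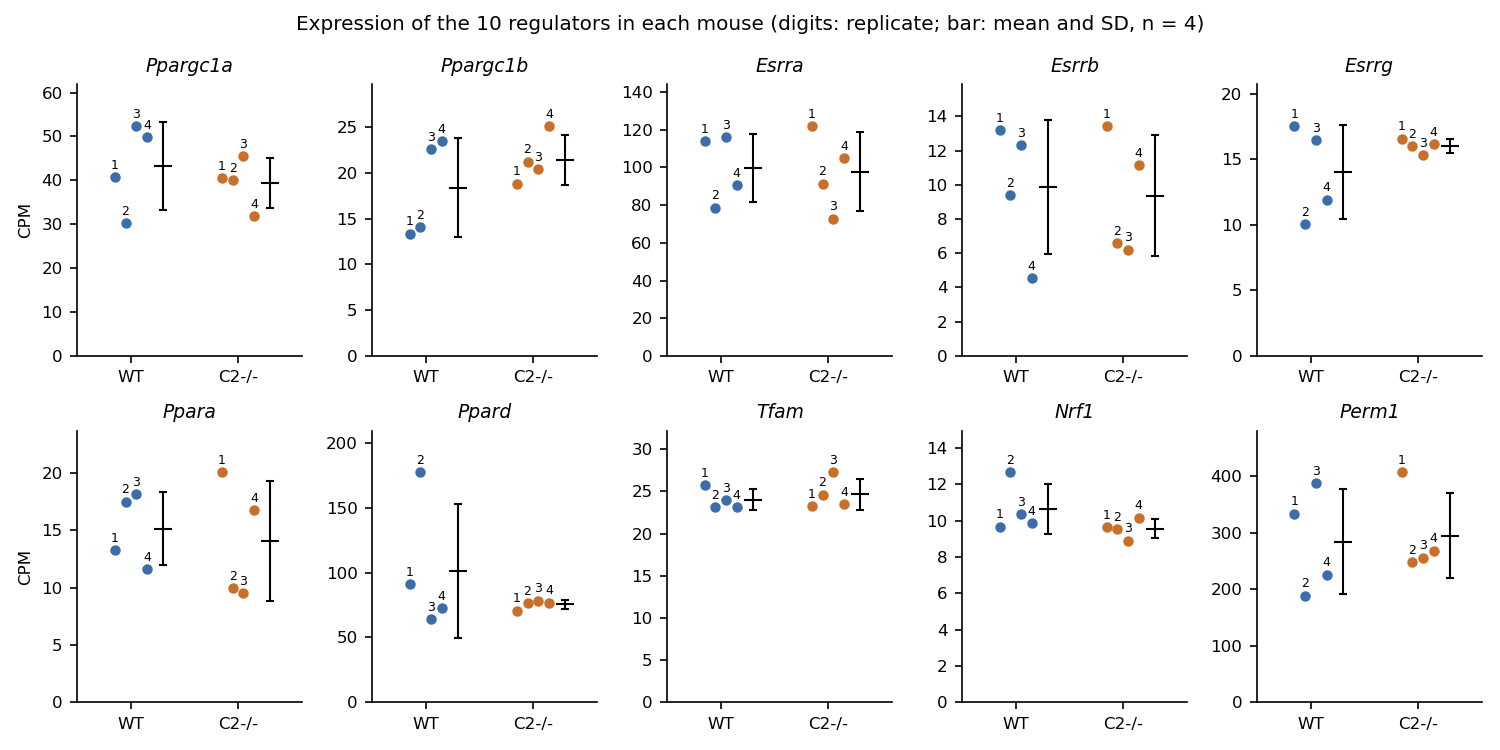
CPM (vertical axes, from 0) of the 10 regulators in each mouse by genotype, with the replicate number above each point and the mean and SD of 4 mice beside them. The genotypes overlap in every panel, WT replicate 2 stands at 177 CPM for Ppard, and the Perm1 panel has WT replicates 1 and 3 and C2-/- replicate 1 at the top.

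On the deposited TPM scale, which corrects for transcript length and so allows genes to be compared, Perm1 was the most abundant regulator with a median of 131 TPM over the 8 mice. Esrra followed with 88.4 TPM and Ppard with 46.1 TPM. Next came Tfam at 14.6 TPM, Ppargc1a at 11.8 TPM and Nrf1 at 7.0 TPM. Ppargc1b at 6.13 TPM, Esrrg at 5.60 TPM, Esrrb at 4.53 TPM and Ppara at 3.61 TPM closed the order. Only Ppard and Tfam were neighbours in this order whose ranges over the mice did not overlap. Within each mouse Perm1 exceeded Esrra in 8 of 8 mice and Ppargc1a exceeded Nrf1 in 8 of 8 mice. When CPM was divided by the length of the longest transcript instead, the first 3 places stayed and Ppara moved from the 10th to the 7th place.

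Whether the balance between related regulators moved was asked within each mouse. The log2 ratio of Ppargc1a to Ppargc1b was 1.61, 1.10, 1.21 and 1.09 in WT and 1.11, 0.91, 1.16 and 0.34 in C2-/-. The groups overlapped, and the means differed by −0.37 (two-sided exact permutation test, p = 0.171, adjusted p = 0.257 over 3 ratios). The log2 ratio of Esrrg to Esrra was −2.85 ± 0.12 in WT and −2.59 ± 0.27 in C2-/- (SD, n = 4), a difference of 0.27 (exact permutation test, p = 0.114, adjusted p = 0.257). The log2 ratio of Ppara to Ppard was −2.64 ± 0.63 in WT and −2.50 ± 0.59 in C2-/- (SD, n = 4, exact permutation test, p = 0.714, adjusted p = 0.714). With 4 mice against 4 this test allows no p under 0.0286.

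The next question was which of the regulators moved together from mouse to mouse. Esrra and Perm1 had a Pearson r of 0.843 and a Spearman rho of 0.857 over the 8 mice (exact permutation tests, p = 0.0106 and p = 0.0107, adjusted p = 0.304 and 0.121 over the 45 pairs). Without the 2 mice farthest from the median of Esrra, r was 0.964. Esrrg and Perm1 had an r of 0.795 and a rho of 0.905 (exact permutation tests, p = 0.0135 and p = 0.00456, adjusted p = 0.304 and 0.121), and r was 0.609 without WT replicates 2 and 4. Esrrb and Ppara had an r of 0.768 and a rho of 0.762 (exact permutation tests, p = 0.0343 and p = 0.0368, adjusted p = 0.308 and 0.236), and r was 0.713 without WT replicate 4 and C2-/- replicate 3. Of the 45 pairs, 5 had an unadjusted p under 0.05 for Pearson r, and none passed adjustment for r or for rho. The other two of these pairs joined Ppard with the coactivators, at r = −0.697 with Ppargc1a and r = −0.706 with Ppargc1b (rho = −0.571 and −0.524, exact permutation p = 0.0252 and 0.0340 for r and 0.151 and 0.197 for rho, adjusted p = 0.308 for both r and 0.567 and 0.590 for rho). Both relations rested on few mice, since r was −0.134 without WT replicates 2 and 3 and 0.042 without WT replicates 1 and 2. Other pairs had an unadjusted p under 0.05 for rho only. Esrra had a rho of 0.857 with Esrrb and with Esrrg (exact permutation tests, p = 0.0107, adjusted p = 0.121 for both). Esrrb had a rho of 0.833 with Esrrg and 0.810 with Perm1 (exact permutation tests, p = 0.0154 and 0.0218, adjusted p = 0.138 and 0.163). In the same order, r was 0.723, 0.626, 0.471 and 0.672.

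**Figure D3:**
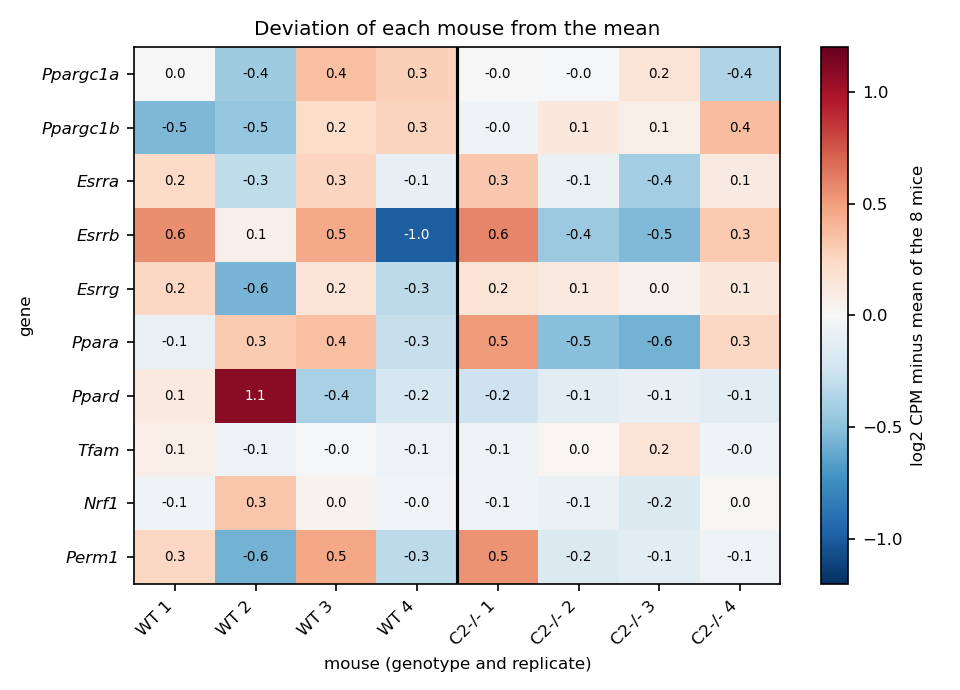
Deviation of each mouse (columns, WT left and C2-/- right of the line) from the mean log2 CPM of the 8 mice for the 10 regulators (rows), red above and blue below the mean. Esrra, Esrrb and Perm1 are above their means in WT replicates 1 and 3 and C2-/- replicate 1, and the highest deviation is that of Ppard in WT replicate 2.

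The region before a transcription start annotated by RefSeq is shown for Perm1 and Esrra, which had the highest r of the 45 pairs without passing adjustment. It is also shown for Ppara, which shares a motif with Esrra, and for Tfam, the textbook target of GABP and nuclear respiratory factor 1. RefSeq's promoter table for GRCm38.p6 held a window of 300 bases for 9 of the 10 genes, all but Ppargc1b, and the 250 bases before the start are printed, 5′ to 3′ on the strand of the gene. The printed stretches are chr4:156215677-156215926 on the plus strand for Perm1, chr19:6921809-6922058 on the minus strand for Esrra, chr15:85735526-85735775 on the plus strand for Ppara and chr10:71238045-71238294 on the minus strand for Tfam. Capitals mark the ERR core AAGGTCA in Perm1, where it lies on the opposite strand, the core GCATGCGC bound by nuclear respiratory factor 1 in Esrra and Ppara, and the GABP core CCGGAAGT in Tfam.
Perm1: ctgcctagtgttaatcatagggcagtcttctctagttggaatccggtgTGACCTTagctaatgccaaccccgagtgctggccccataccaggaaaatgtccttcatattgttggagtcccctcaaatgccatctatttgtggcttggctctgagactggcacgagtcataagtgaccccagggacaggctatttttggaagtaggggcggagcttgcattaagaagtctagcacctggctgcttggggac
Esrra: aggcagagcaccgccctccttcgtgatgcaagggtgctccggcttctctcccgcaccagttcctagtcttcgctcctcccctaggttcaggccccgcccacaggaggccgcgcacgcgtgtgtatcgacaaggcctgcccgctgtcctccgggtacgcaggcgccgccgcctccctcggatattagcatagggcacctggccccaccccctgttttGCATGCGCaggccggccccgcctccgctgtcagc
Ppara: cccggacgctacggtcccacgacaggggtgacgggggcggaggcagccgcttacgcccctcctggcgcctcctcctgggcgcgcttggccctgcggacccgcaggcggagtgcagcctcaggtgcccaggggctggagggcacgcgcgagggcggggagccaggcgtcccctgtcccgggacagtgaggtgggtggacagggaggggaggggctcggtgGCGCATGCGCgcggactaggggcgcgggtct
Tfam: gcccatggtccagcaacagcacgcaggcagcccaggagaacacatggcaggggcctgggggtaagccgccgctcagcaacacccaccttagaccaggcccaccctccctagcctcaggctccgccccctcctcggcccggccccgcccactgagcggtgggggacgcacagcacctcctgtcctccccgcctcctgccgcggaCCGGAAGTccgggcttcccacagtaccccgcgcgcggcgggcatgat

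Both strands of all windows were searched. The ERR core was found in 1 of the 9 windows, that of Perm1, and in 4.72% of the 32851 promoter windows of the table. The longer ERR element TNAAGGTCA, which contains this core, was in none of the 9 windows and in 1.28% of all windows. The GCATGCGC core was in 2 of the 9 windows and in 2.71% of all, and in Ppara it occurred on both strands as overlapping matches. The GABP core was in 1 of the 9 windows and in 3.89% of all. The cyclic AMP response element TGACGTCA was in none of the 9 and in 1.79% of all. A match is a description of letters, not a bound site, and a window describes 1 start per gene, which need not be the start used in this muscle. By the GENCODE positions given above, the printed stretch of Ppara lies inside the gene. That of Tfam lies mostly inside its gene, with the GABP core, and those of Perm1 and Esrra reach into theirs at the 3′ end.

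Target genes were then read from lists of textbook targets. Of 25 ERR and PGC-1 target genes, 5 were higher and 20 were lower in C2-/-, with a median log2 fold change of −0.06 beside −0.02 for all tested genes, of which 45.8% were higher. None had an adjusted p under 0.05 in edgeR. Citrate synthase (Cs) was at −0.07 on the log2 scale, and myoglobin (Mb) was at −0.26 with an unadjusted p of 0.322 in edgeR, both chosen after their values were seen. Kyat3 at −0.24 and Ldhd at 0.20 were among the genes of the list with the smallest p, and neither had an unadjusted p under 0.05. Without WT replicate 2 they were at −0.058 and 0.075. Of 9 slow and oxidative fibre markers measured beside this list, 2 were higher and 7 lower in C2-/-, none at an adjusted p under 0.05. At an unadjusted p under 0.05 in edgeR, 2 were lower, Myl2 and Myh7, beside 1.91% of all tested genes. Both lay at or under 4.13 CPM, except for Myh7 at 20.9 CPM in WT replicate 4. The log2 fold change of Myh7 was −2.47, and −0.51 without this mouse. Myh2, most of the marker sum, was at −0.24 with an unadjusted p of 0.472 in edgeR. The part of these markers in the result was not tested.

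Across mice, these target genes had a higher median r with Esrra and Perm1 than with Ppargc1a, a description that was not tested. Summed over the list, ERR and PGC-1 targets reached 28030.1, 21923, 25306 and 20116 CPM in WT and 26601, 20062, 20259 and 20416 CPM in C2-/-. WT replicates 1 and 3 and C2-/- replicate 1 were again the highest. Of the 24 target genes with a mean of at least 10 CPM, all 24 had a positive r with Esrra over the 8 mice, with a median of 0.684, where 46.8% of the other 6923 genes at this level had a positive r and their median was −0.050. For Perm1 the count was 22 of 24 with a median of 0.771, for Esrrb 23 with 0.651, and for Esrrg 21 with 0.502. For Ppargc1a the count was 20 with a median of 0.246, and for Ppargc1b it was 4 with a median of −0.428. Without WT replicate 2 the medians were 0.676 for Esrra, 0.793 for Perm1, 0.116 for Ppargc1a and −0.619 for Ppargc1b. For 20 PPAR target genes at this level, the median r over 8 mice was 0.239 with Esrra, 0.272 with Perm1 and 0.675 with Esrrb. With Ppara it was 0.352 and with Ppard 0.330. Without WT replicate 2 the PPAR target medians were 0.518 for Esrra, 0.594 for Perm1, 0.694 for Esrrb, 0.377 for Ppara and 0.272 for Ppard. A positive median r with Esrra, Esrrb and Perm1 was thus not particular to the ERR and PGC-1 list. These correlations are descriptions over 8 libraries, the genes of a list are not independent of each other, and the points share library and depth. Slow and oxidative fibre markers summed to 609.9, 257, 446 and 382 CPM in WT and 386, 229, 315 and 502 CPM in C2-/-, mostly from Myh2, and their part in this pattern was not tested.

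**Figure D4:**
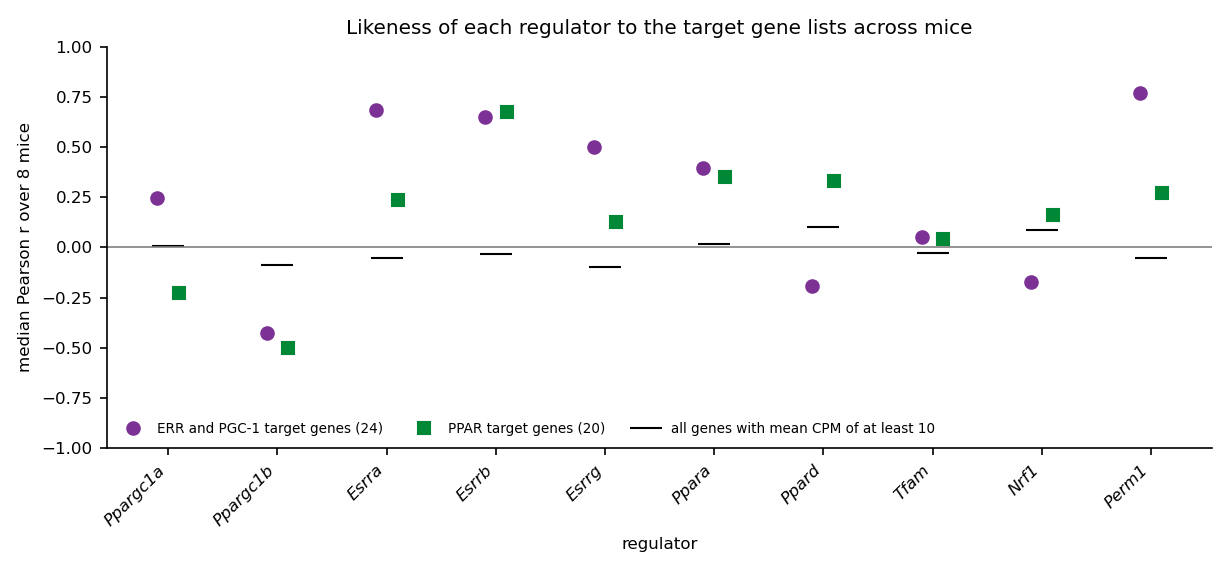
Median Pearson r (vertical axis) over 8 mice between each regulator (horizontal axis) and 24 ERR and PGC-1 target genes (circles), 20 PPAR target genes (squares) and all genes with a mean of at least 10 CPM (bars). The circles are highest for Perm1, at 0.771, and lowest for Ppargc1b, at −0.428.

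Of 23 PPAR target genes, 7 were higher and 16 were lower in C2-/-, with a median log2 fold change of −0.11, and none had an unadjusted p under 0.05. Pdk4, the kinase that shuts pyruvate dehydrogenase when fat is burned, came closest. Its level was 129, 1009, 282 and 468 CPM in WT and 320.2, 212, 234 and 133 CPM in C2-/-. Its log2 fold change was −1.07 with a standard error of 0.52 (unadjusted p = 0.0645, adjusted p = 0.968, edgeR), and it was −0.37 without WT replicate 2. Acot1, a thioesterase of fatty acyl-CoA, had a log2 fold change of −1.41 with values from 0.187 to 2.26 CPM, and Cd36, the fatty acid transporter, one of −0.30. Without WT replicate 2 these were −0.60 and −0.16, and without WT replicate 4 Cd36 was at −0.47. WT replicate 2 held the highest value for 10 of the 23 PPAR targets (43.5%), and for 27.5% of all tested genes.

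The high Ppard of WT replicate 2 went with high levels of several fatty acid genes in the same mouse. Acot2, a mitochondrial thioesterase, stood at 65.7 CPM in this mouse and between 12.7 and 19.2 CPM in the other 7. Lpin1, which codes for a lipid phosphatase that also coactivates with PGC-1alpha, stood at 565 CPM beside 269 to 459 CPM. The uncoupling protein gene Ucp2 stood at 51.7 CPM beside 21.6 to 35.6 CPM, and the lipid droplet gene Plin5 at 24.9 CPM beside 6.99 to 14.6 CPM. These 4 genes and Pdk4 were picked after their values were seen. Over the other 7 mice the r with Ppard was 0.285 for Acot2, −0.665 for Pdk4, −0.091 for Lpin1, 0.353 for Ucp2 and −0.216 for Plin5, each a description over 7 libraries. The same mouse was the lowest of the 8 for Ppargc1a, Esrrg and Perm1, 30% of the 10 regulators beside 24.5% of all tested genes. It was the highest for 20% of the regulators beside 27.5% of all tested genes. It was also among the highest in immediate early genes, whose part in the result was not tested.

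**Figure D5:**
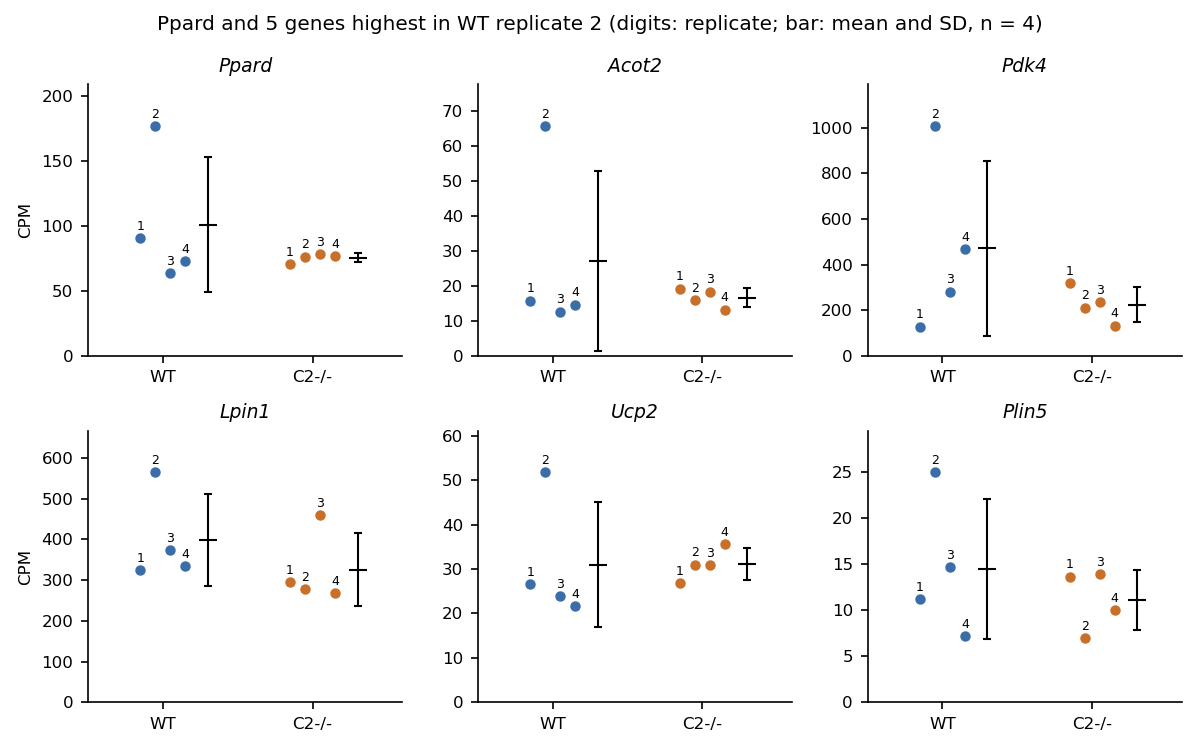
CPM (vertical axes, from 0) of Ppard and of Acot2, Pdk4, Lpin1, Ucp2 and Plin5 in each mouse by genotype, with the replicate number above each point and the mean and SD of 4 mice beside them. WT replicate 2 is the highest mouse in all 6 panels, at 177 CPM for Ppard and 65.7 CPM for Acot2.

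Genes around the regulators were measured as well, and none had an adjusted p under 0.05 in edgeR. An unadjusted p under 0.05 was found for 5.29% of all tested genes. Of 17 coactivators and corepressors, 8 were higher and 9 lower in C2-/-, and none had an unadjusted p under 0.05. Closest were Lpin1 at −0.29, the deacetylase Sirt1 at −0.23 and the muscle methyltransferase Smyd1 at 0.12 on the log2 scale. Without WT replicate 2 these values were −0.072 for Lpin1 and −0.036 for Sirt1, and without C2-/- replicate 3 Lpin1 was at −0.51 and Smyd1 at 0.045. Of 12 partner receptors and factors, 2 were higher and 10 lower, with a median log2 fold change of −0.15 and none with an unadjusted p under 0.05. Closest in this list were the adipose receptor Pparg at −0.39, the GABP subunit Gabpa at −0.16 and the stress factor Nfe2l2 at −0.28 on the log2 scale. Nfe2l2 was at −0.052 without WT replicate 2, and Pparg at −0.22 without WT replicate 1.

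Of 28 upstream kinases and activity sensors, 14 were higher and 14 lower. Camkk2, a kinase that activates AMPK, had 1.97, 1.57, 2.28 and 1.85 CPM in WT and 2.38, 4.17, 2.91 and 2.77 CPM in C2-/-. All C2-/- mice lay above all WT mice, by a log2 fold change of 0.67 with a standard error of 0.23 (unadjusted p = 0.0151, adjusted p = 0.788, edgeR). The genotypes did not overlap for 3.38% of all tested genes. The log2 fold change of Camkk2 was 0.49 without C2-/- replicate 2 and 0.35 without the 3 mice with high immediate early genes. Crtc2, a coactivator of CREB, had 49.6, 65.4, 38.2 and 42.8 CPM in WT and 36.5, 39.6, 29.6 and 36.0 CPM in C2-/-, which overlapped, and its log2 fold change was −0.47 with a standard error of 0.17 (unadjusted p = 0.0216, adjusted p = 0.849, edgeR), and −0.29 without WT replicate 2. Stk11, the kinase LKB1, was at −0.18 on the log2 scale.

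Of 18 genes for maintenance and transcription of mitochondrial DNA, 17 were tested, of which 5 were higher and 12 lower, and Mterf1b did not pass the filter. Mgme1, a nuclease of mitochondrial DNA, had 8.64, 4.74, 7.69 and 8.58 CPM in WT and 14.5, 8.93, 10.1 and 8.91 CPM in C2-/-. Like 3.38% of all tested genes, Mgme1 did not overlap between the genotypes. Its log2 fold change was 0.52 with a standard error of 0.23 (unadjusted p = 0.0447, adjusted p = 0.922, edgeR), and 0.34 without C2-/- replicate 1. Mterf3 at −0.27 and Tfb1m at 0.20 on the log2 scale were next in the list and had no unadjusted p under 0.05, and they were at −0.12 without WT replicate 2 and at 0.10 without C2-/- replicate 3. Over the 6 lists, 4 of 122 genes (3.28%) had an unadjusted p under 0.05, 2 in each direction, beside 5.29% of all tested genes (3.38% higher and 1.91% lower in C2-/-), and none an adjusted one.

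Genes whose pattern over the 8 mice was most like that of a regulator were found among 6924 genes with a mean of at least 10 CPM, as Pearson r of log2 CPM. For Ppargc1a these were Cop1 (r = 0.959), Hdac2 (0.949) and Aptx (0.938). For Esrra they were Slc41a1 (r = 0.976), Mgrn1 (0.963) and Zdhhc8 (0.958). For Ppara they were Ccnd3 (r = 0.942), Akap1 (0.942) and Pofut2 (0.940). For Perm1 they were Ephx2 (r = 0.951), Sod2 (0.949) and Sdha (0.946), of which Sdha belongs to the list of ERR and PGC-1 targets. For Ppard, added after its values were seen, they were Ctsd (r = 0.993), Dnaja2 (0.990) and Psmd11 (0.990), at 0.924, 0.897 and 0.891 without WT replicate 2. Each is the top of a search over 6924 genes in 8 libraries and is a description.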

How the data were processed

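Total RNA of the TA muscle of 8 mice was enriched for mRNA and sequenced, with 1 library per mouse. Per the paper's methods, reads were aligned to GRCm38.p6 with HISAT and counted with featureCounts v1.5.2, while the submitters' notes also name Bowtie2 and DESeq2. The authors deposited expected counts per gene, not normalized, of which 5.50% to 6.53% per library are not whole numbers, and they were rounded here. TPM values were deposited by the authors beside them, together with 8 FPKM columns and the authors' own log2 fold change, p-value and q-value, which were not used.

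Counts were scaled with TMM (factors 0.929 to 1.03) and filtered with edgeR's default filter. Genotypes were compared with edgeR 4.0.16 (quasi-likelihood, R 4.3.3) across 12542 genes with Benjamini-Hochberg adjustment, and a gene was called at an adjusted p under 0.05 and over 1.5-fold. Standard errors came from the fold change and the root of F. Alternatives were RLE factors, limma-voom (limma 3.58.1), DESeq2 1.42.0, no filter, at least 10 counts in every library, the replicate number as a block, leaving out each mouse and, added after seeing the data, leaving out the 3 mice with high immediate early genes. Ratios of 2 genes were compared by exact permutation, two-sided (scipy 1.17.1). The fits of edgeR, limma-voom and DESeq2 were tested on simulated counts. A level of 3 counts is the floor and covers counting error only. Correlations used log2 CPM with a prior count of 2.

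The 10 genes and the gene lists were chosen with earlier results of these data known. Named genes are the 10 regulators, Mybpc2, the 3 genes of smallest p per list and genes past an adjusted p of 0.05, which were Mybpc2, Emc10, Eif3j1 and Ahcy. Marker lists covered fast and slow fibres, adipocytes, endothelium, macrophages, tendon, immediate early genes and the clock. The mice of both genotypes carry replicate numbers 1 to 4, which name different mice. Positions came from the GENCODE annotation of GRCm38, which places Ppargc1a and Ppargc1b on the minus strand where the deposited table has plus. The values of 1 listed gene are not reported here.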

Additional observations from a re-analysis of the deposited data

Results flagged for a closer look

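In groups of 4 mice, a value was marked where its gap to the nearest mouse was too large a share of the whole range for its group (Dixon's test at the 95% level). Of 106 groups tested, 9 were marked, and chance marks about 1 in 20. Of 20 groups of the 10 regulators, 1 was marked, Perm1 at 407 CPM in C2-/- replicate 1 beside 248 to 269 CPM in the other C2-/- mice. Mybpc2 stood at 38.3 CPM in C2-/- replicate 3 beside 3.85 to 4.35 CPM. Lpin1 stood at 459 CPM in C2-/- replicate 3 beside 269 to 296 CPM, and Mterf3 at 14.2 CPM in WT replicate 2 beside 9.85 to 10.3 CPM. Among the marker genes, Ckm was lowest in C2-/- replicate 2 at 19568 CPM, Myh7 highest in WT replicate 4 at 20.9 CPM and Adipoq lowest in WT replicate 1 at 0.771 CPM. Pecam1 was lowest in WT replicate 4 at 52.3 CPM, and Atf3 highest in C2-/- replicate 2 at 14.0 CPM.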

How the results depend on the processing

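No setting gave one of the 10 regulators an adjusted p under 0.05, and the lowest adjusted p over 150 values under 15 alternatives was 0.642. The direction was kept in 131 of these values and turned in 19. Leaving out 1 mouse, the log2 fold change ran from −0.15 to 0.087 for Esrra, −0.30 to 0.10 for Esrrb, −0.32 to 0.043 for Ppara, −0.58 to 0.00053 for Ppard, −0.26 to −0.023 for Ppargc1a, 0.095 to 0.37 for Ppargc1b, 0.070 to 0.32 for Esrrg, −0.013 to 0.074 for Tfam and −0.14 to 0.24 for Perm1. It ran from −0.21 to 0.075 for Kdr, and the difference of the log2 ratio of Ppara to Ppard from −0.085 to 0.42. The number of regulators with an unadjusted p under 0.05 ran from 0 to 1, that of listed genes from 2 to 6, and that of all called genes from 4 to 7. Without the 3 mice with high immediate early genes, 2 genes were called, and values that turned were −0.083 for Esrrg, −0.0067 for Tfam, −0.21 for Perm1, 0.17 for Pdk4, 0.047 for Kyat3, −0.012 for Ldhd, 0.039 for Acta1, 0.018 for Ckm, 0.79 for Nr4a3 and 0.26 for Atf3. DESeq2 called 38 genes where edgeR called 4, none of them a regulator. By CPM per length of transcript, the place in the order was 6 for Tfam, 4 for Ppargc1a, 9 for Nrf1, 5 for Ppargc1b, 10 for Esrrb and 7 for Ppara. The cause was not tested. With the replicate number as a block, 4 genes were called and 660 had an unadjusted p under 0.05, beside 663 without the block, and no call on the regulators changed. Same-numbered mice correlated at r = −0.051 to 0.267 in their deviations and 2 of 8 libraries correlated best with their own number, so that the numbers were taken as names only. Mice of 1 genotype differed by more than sampling noise in every pair (chi-square per degree of freedom of at least 28.9). The intervals of 5 regulators, with 4 mice per genotype, include changes of 1.5-fold.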
